A study of Rattus norvegicus with 6 samples.

Results

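The 3p arms of the let-7 hairpins were followed in exosomes released by bone marrow mesenchymal stem cells (MSCs) of Sprague-Dawley rats. MSCsTXL-exo (3 libraries) came from MSCs that had received 400 μg/mL Tongxinluo (TXL), a traditional Chinese medicine compound, for 24 h, and MSCs-exo (3 libraries) came from MSCs without TXL. All cells had been selected by adherence to plastic from marrow of male rats and were kept in medium with exosome-free fetal bovine serum before the vesicles were collected by ultracentrifugation. The members were the 8 rows of the miRNA table named rno-let-7a-1-3p, rno-let-7a-2-3p, rno-let-7b-3p, rno-let-7c-1-3p, rno-let-7c-2-3p, rno-let-7d-3p, rno-let-7e-3p and rno-let-7f-1-3p, out of 749 mature miRNAs in all. They were taken by name, and no measured value entered the rule. RNA was measured in exosomes only, so fewer vesicles carrying an arm and fewer copies of it per vesicle cannot be told apart.

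The let-7 miRNAs are a conserved family that restrains growth and keeps cells differentiated, in part by repressing Lin28, Ras and Hmga2 mRNAs. Each let-7 hairpin is cut by Drosha and Dicer into a short duplex, in which the strand from the 5′ side, the guide, is usually kept by an Argonaute protein and the strand from the 3′ side, the passenger, is usually degraded. The guide arms of several let-7 genes have the same sequence, whereas the 3p arms mostly differ, so that a 3p arm can tell which of several gene copies was transcribed. The bases 2 to 8 of a miRNA, its seed, pair with target mRNAs.

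The mature sequences show which arms can be told apart in sequencing and which share a seed. RefSeq (GRCr8) gave a mature sequence for 7 of the 8 names, printed here 5′ to 3′ with the seed in capitals.
let-7a-1-3p: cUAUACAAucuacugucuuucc
let-7c-2-3p: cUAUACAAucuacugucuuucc
let-7b-3p: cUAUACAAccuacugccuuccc
let-7f-1-3p: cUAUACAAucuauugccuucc
let-7d-3p: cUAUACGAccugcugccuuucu
let-7e-3p: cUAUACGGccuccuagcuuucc
let-7a-2-3p: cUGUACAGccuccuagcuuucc
The seed UAUACAA was shared by 4 members, let-7a-1-3p, let-7b-3p, let-7c-2-3p and let-7f-1-3p. The other 3 with a sequence each had a seed that no other member had. Counted from the 5′ end, let-7b-3p differed from let-7a-1-3p by U9C, U16C and U20C, all outside the seed. In let-7d-3p the substitution A7G fell inside the seed, beside U9C, A12G, U16C and C22U further on. The pair let-7a-2-3p and let-7e-3p had the same bases from position 8 to the 3′ end and differed by G3A and A7G. The arms of let-7a-1 and let-7c-2 were identical over all 22 bases, and among the 682 names of the table with a RefSeq mature sequence no other names shared 1 whole sequence.

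The 7 arms with a sequence lie in 4 places of the rat genome. In GRCr8, let-7a-1-3p (chr17:16320196-16320217), let-7f-1-3p (chr17:16320564-16320584) and let-7d-3p (chr17:16322327-16322348) stood in this order on the plus strand, with 2131 bases between the first and the last start, inside the span of the long noncoding RNA gene LOC120097935. On the plus strand of chromosome 7, let-7c-2-3p (chr7:118683684-118683705) started 414 bases before let-7b-3p (chr7:118684098-118684119), and no annotated gene other than their own hairpins spanned them. The arm let-7a-2-3p (chr8:50805264-50805285) lay within the spans of Mir100hgl and Lnc215, and let-7e-3p (chr1:67350288-67350309) within the span of Spaca6. Antisense miR-3596 genes were annotated over the hairpins of let-7a-2, let-7d, let-7e and let-7f-1. Spans of whole genes were compared, so exons and introns were not told apart.

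The libraries held 382665 to 1792805 UMIs (unique molecular identifiers, each marking 1 RNA molecule before PCR), and 657 to 720 miRNAs were detected in each. They are named here as in the columns of the table, 10, 12 and 13, and these numbers could not be matched to those in the sample titles. Markers of mesenchymal cells, all 9 of them in the table, summed to 347250 to 397817 CPM (scaled UMI counts) in MSCsTXL-exo and 311601 to 398644 CPM in MSCs-exo. The largest part of this sum was miR-125b-5p, with a mean of 176154 CPM over all libraries. That miRNA is also among the cluster neighbours of let-7 described below. The labels do not say whether each library had a culture of its own, and the spread on which the p-values rest may therefore be technical. Intervals and floors cover counting error only.

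The let-7 3p arms were minor RNAs of the exosomes and ranged widely in level. Levels are given as CPM, UMIs divided by the library total after that total was scaled with its TMM factor. Among the 8 rows, over all 6 libraries, let-7b-3p was the most abundant at 329 ± 119 CPM (SD, n = 6). This placed it 112th of 749 miRNAs. The row let-7d-3p followed at 192 ± 64.8 CPM. The rows of the identical arms let-7a-1-3p and let-7c-2-3p came next at 127 ± 36.9 and 121 ± 47.5 CPM. As 1 RNA, these arms had a mean of 233 CPM in MSCsTXL-exo and 264 CPM in MSCs-exo. The means of let-7d-3p were 239 and 145 CPM. The place of let-7d-3p after let-7b-3p therefore holds for rows, not for separate RNAs. The levels of let-7f-1-3p, let-7c-1-3p, let-7e-3p and let-7a-2-3p were 51.3 ± 20.4, 25.8 ± 11.7, 8.62 ± 3.72 and 3.58 ± 1.89 CPM. Of the neighbours in this order of rows, let-7b-3p was above let-7d-3p in 6 of 6 libraries and let-7d-3p above let-7a-1-3p in only 4 of 6. The steps from let-7c-2-3p to let-7f-1-3p and from let-7c-1-3p to let-7e-3p also held in 6 of 6 libraries, and the 3 remaining steps held in 5 of 6. Among these 3, the step from let-7a-1-3p to let-7c-2-3p lies between rows of the same sequence.

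**Figure D1:**
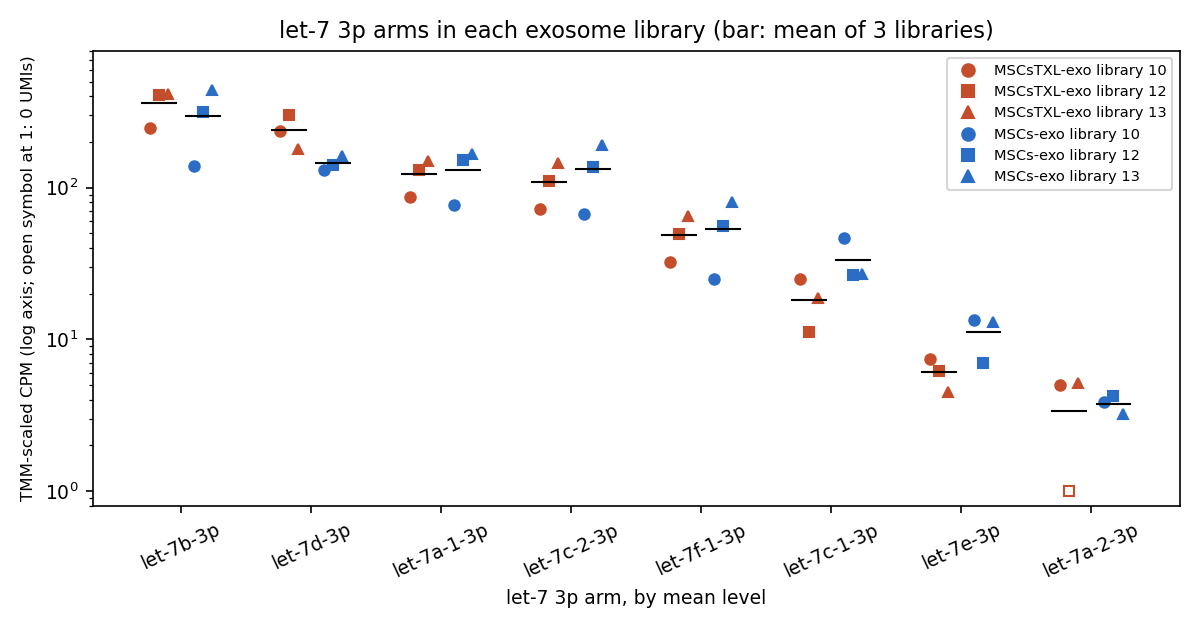
Level of each let-7 3p arm in each library (TMM-scaled CPM, log axis), MSCsTXL-exo in orange and MSCs-exo in blue, symbols by library number, with a bar at each group's mean of 3 libraries. The groups overlap for 6 of the 8 arms, let-7d-3p lies higher and let-7c-1-3p lower in every MSCsTXL-exo library, and the open symbol marks the library in which let-7a-2-3p had 0 UMIs.

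For let-7b-3p, the 3p arm of a hairpin whose guide is among the most abundant miRNAs here, the values were 249, 411 and 418 CPM in MSCsTXL-exo libraries 10, 12 and 13, against 139, 314 and 444 CPM in MSCs-exo libraries 10, 12 and 13. Library 10 was the lowest of both groups, and the groups overlapped. The means were 359 ± 95.3 and 299 ± 153 CPM (SD, n = 3 each), and the log2 fold change of MSCsTXL-exo over MSCs-exo was 0.27 (SE 0.48, adjusted p = 0.992 by edgeR's quasi-likelihood test with Benjamini-Hochberg adjustment over all 392 tested miRNAs).

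The rows let-7a-1-3p and let-7c-2-3p belong to hairpins on different chromosomes but to 1 RNA sequence, and their counts were close to an even split. Of the UMIs of both rows, let-7a-1-3p held 35 of 64, 106 of 196 and 233 of 457 in MSCsTXL-exo, against 40 of 75, 108 of 206 and 154 of 332 in MSCs-exo. These shares, 54.7%, 54.1% and 51.0% in MSCsTXL-exo and 53.3%, 52.4% and 46.4% in MSCs-exo, each had a 95% Wilson interval that held 50%. Over all 1330 UMIs the share was 50.8% (48.1 to 53.5%). The 2 rows therefore carry no separate measure of the chromosome 17 and the chromosome 7 gene, and how the reads were divided between them is not given in the sources used here.

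**Figure D2:**
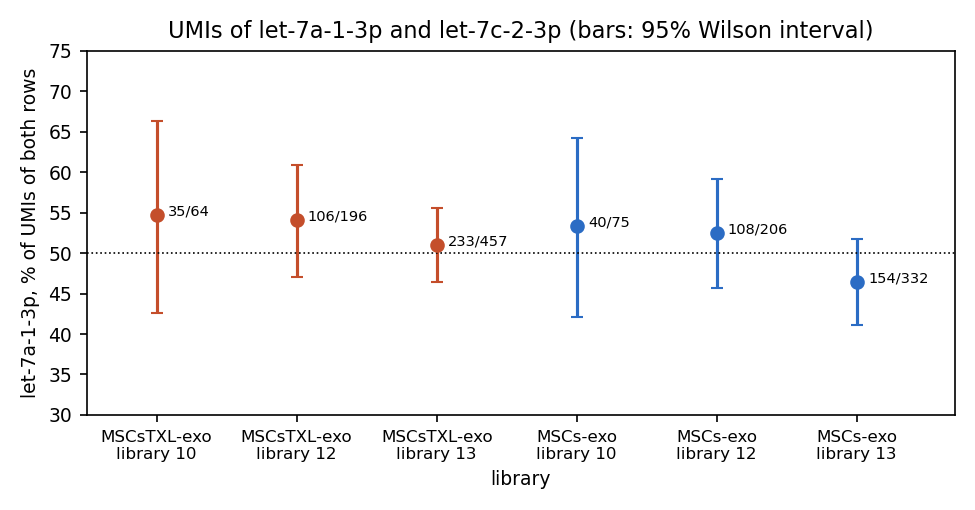
Share of let-7a-1-3p among the UMIs of let-7a-1-3p and let-7c-2-3p in each library (percent), with 95% Wilson intervals, the counts beside each point and a dotted line at 50%. Every interval holds 50%, in MSCsTXL-exo (orange, left) and in MSCs-exo (blue, right).

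Taken as 1 RNA, the pair had 160, 243 and 296 CPM in MSCsTXL-exo, against 145, 290 and 359 CPM in MSCs-exo. Library 10 was again the lowest and library 13 the highest of each group, and the groups overlapped (means 233 ± 68.7 and 264 ± 109 CPM, SD, n = 3 each, p = 0.8 by a two-sided exact permutation test, for which 0.1 is the smallest possible p). Tested as separate rows, let-7a-1-3p had a log2 fold change of -0.10 (SE 0.45) and let-7c-2-3p of -0.27 (SE 0.50), with adjusted p = 0.992 by edgeR for both. Both rows hold 1 sequence counted in the same libraries, so these SEs do not measure the error of the gap between the 2 estimates.

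The arm let-7f-1-3p, which comes from the same chromosome 17 cluster as let-7a-1 and shares its seed, had 32.4, 49.5 and 64.7 CPM in MSCsTXL-exo, against 25.1, 56.2 and 79.9 CPM in MSCs-exo. These values rested on 13, 40 and 100 UMIs in MSCsTXL-exo and 13, 40 and 74 UMIs in MSCs-exo. The groups overlapped fully, with a log2 fold change of -0.13 (SE 0.52, adjusted p = 0.992, edgeR).

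The arm let-7d-3p was the only tested member with every MSCsTXL-exo library above every MSCs-exo library. It had 237, 299.6 and 180 CPM in MSCsTXL-exo, against 131, 141 and 162 CPM in MSCs-exo, from 95, 242 and 278 UMIs and from 68, 100 and 150 UMIs. The lowest MSCsTXL-exo value stood just above the highest MSCs-exo value, both of them from library 13. The means were 239 ± 59.9 and 145 ± 15.8 CPM (SD, n = 3 each), a 1.65-fold difference with a log2 fold change of 0.72 (SE 0.36, adjusted p = 0.972, edgeR). Within a library number the ratio of MSCsTXL-exo to MSCs-exo was 1.81 for 10, 2.13 for 12 and 1.11 for 13. The groups stayed apart with RLE factors, upper quartile factors and library totals alone, in the last case with 155 CPM in MSCsTXL-exo library 13 against 149.9 CPM in the highest MSCs-exo library.

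The arm let-7c-1-3p went the other way. It had 24.9, 11.1 and 18.8 CPM in MSCsTXL-exo, against 46.3, 26.7 and 27.0 CPM in MSCs-exo. The counts behind these were small, at 10, 9 and 29 UMIs in MSCsTXL-exo and 24, 19 and 25 UMIs in MSCs-exo. Every MSCsTXL-exo library was below every MSCs-exo library, with means of 18.3 ± 6.91 and 33.3 ± 11.2 CPM (SD, n = 3 each) and a log2 fold change of -0.88 (SE 0.47, adjusted p = 0.972, edgeR). With library totals alone as the scaling, the groups overlapped, since MSCsTXL-exo library 10 then had 26.1 CPM against 24.99 CPM in MSCs-exo library 13.

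Of 7 blood cell markers listed, 6 were found in the table, and their sum did not overlap between the groups. Among single tested miRNAs, 3.32% had every MSCsTXL-exo library below every MSCs-exo library. The sum of the blood cell markers was 214 to 332 CPM in MSCsTXL-exo and 335 to 450 CPM in MSCs-exo, a narrow gap. None of the 6 was at 0 in all libraries. The sum of the liver and serum markers overlapped, at 332 to 555 CPM in MSCsTXL-exo and 368 to 432 CPM in MSCs-exo. The sums of the neuronal and of the epithelial markers overlapped as well. The part of the blood cell markers in the values of let-7d-3p and let-7c-1-3p was not tested.

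The remaining members were near the detection limit. The arm let-7e-3p had 3, 5 and 7 UMIs in MSCsTXL-exo (7.48, 6.19 and 4.53 CPM), against 7, 5 and 12 UMIs in MSCs-exo (13.5, 7.03 and 12.96 CPM). MSCsTXL-exo library 10 lay above MSCs-exo library 12, so the groups overlapped, and a fit without the filter on low counts gave a log2 fold change of -0.94 (SE 0.61, adjusted p = 0.995, edgeR). With upper quartile factors the groups did not overlap, at 7.29, 5.69 and 5.22 CPM in MSCsTXL-exo against 12.3, 7.55 and 12.9 CPM in MSCs-exo. These values rest on the same few UMIs. The arm let-7a-2-3p had 2, 0 and 8 UMIs in MSCsTXL-exo, against 2, 3 and 3 UMIs in MSCs-exo, 18 in all. The 0 of MSCsTXL-exo library 12 allows up to 3.71 CPM (3 UMIs), which lies within the range of the MSCs-exo libraries, so no difference was detectable at this depth.

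Of the 8 members, 6 passed the filter on low counts. The study's thresholds were a difference of more than 2-fold with p under 0.05 before adjustment. By them, 0 of these 6 were called by edgeR, against 14 of 392 tested miRNAs (3.57%). An unadjusted p under 0.05 alone was also reached by 0 members, and DESeq2 and limma-voom called 0 members as well. An adjusted p under 0.05 was reached by 0 of 392 miRNAs (0%). The 6 members had a median log2 fold change of -0.11, against 0.03 over all tested miRNAs, with 2 positive and 4 negative values. The rows let-7a-1-3p and let-7c-2-3p, both negative, hold the same sequence and are counted as separate members in all these counts. Groups that did not overlap were found for 1 of the 6 with MSCsTXL-exo higher, against 4.08% of all tested miRNAs, and for 1 of the 6 with MSCsTXL-exo lower, against 3.32%.

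The 9 guide arms of the family, those of let-7a to let-7g, let-7i and miR-98, all passed the filter, and all 9 had a positive log2 fold change (median 0.35, range 0.06 to 0.39), as did 206 of all 392 tested miRNAs. With library totals alone as the scaling 8 of 9 were positive. Without MSCsTXL-exo library 13 it was 7 of 9 with a median of 0.19, and without MSCs-exo library 10 it was 8 of 9, also with a median of 0.19. None was called by edgeR, DESeq2 or limma-voom, and by edgeR 0 of 9 had an unadjusted p under 0.05. With the library number as a block this p was under 0.05 for 3 of 9, let-7b-5p, let-7c-5p and let-7i-5p, and 0 of 9 passed the 2-fold threshold or had an adjusted p under 0.05. The share of all miRNAs with p under 0.05 in the block fit is not given here, but 29 of 392 passed both thresholds. For the guides this p was under 0.05 for 1 of 9 with library totals alone and 2 of 9 with at least 10 counts in every library. With the block and no filter it was 1 of 9, and in the other settings no guide had it. In 4 of them, the guides of let-7a, let-7b, let-7c and let-7e, the lowest MSCsTXL-exo value exceeded the highest MSCs-exo value, against 4.08% of all tested miRNAs. The guides thus lay within a narrow band, while the 3p arms spread over -0.88 to 0.72 with an SE of 0.36 to 0.52 each, against 0.18 to 0.33 for the guides.

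**Figure D3:**
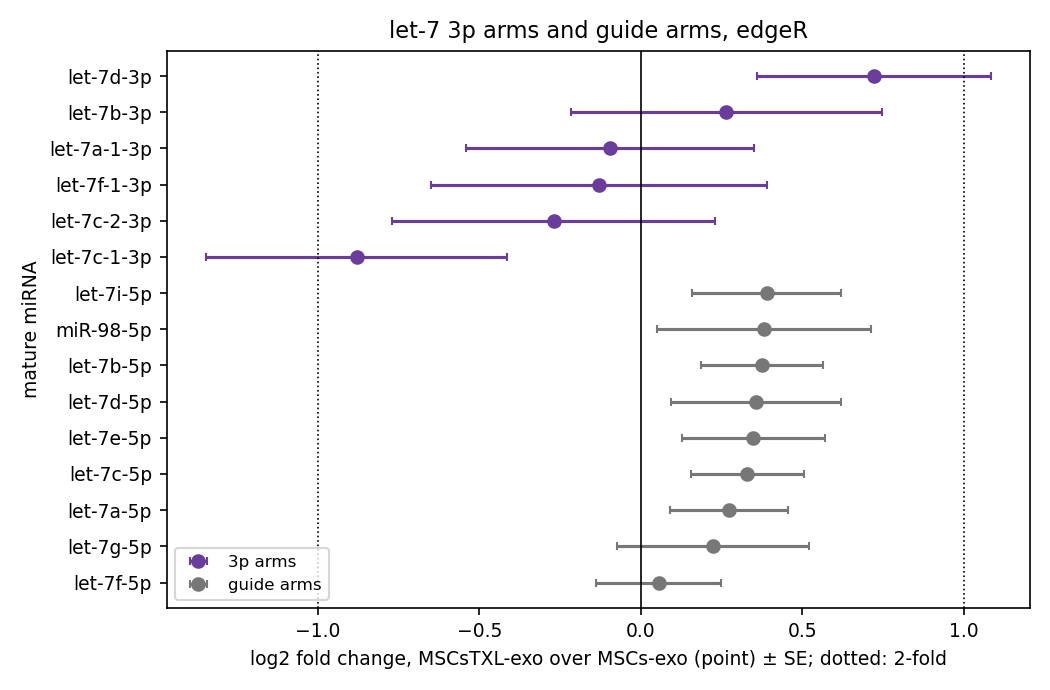
Log2 fold change of MSCsTXL-exo over MSCs-exo (points) with SE (bars) for the 6 tested let-7 3p arms (purple, above) and the 9 guide arms (grey, below), from edgeR, with dotted lines at a 2-fold difference. The 3p arms range from -0.88 for let-7c-1-3p to 0.72 for let-7d-3p, the guides from 0.06 to 0.39.

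Summed over the 8 members, the 3p arms made up 716, 1020.2 and 987 CPM in MSCsTXL-exo, against 503, 838 and 1088 CPM in MSCs-exo. The lowest value was that of MSCs-exo library 10 and the highest that of MSCs-exo library 13, so the MSCsTXL-exo libraries lay inside the range of the others. The mean log2 difference was 0.22 (p = 0.7, two-sided exact permutation test), and without MSCs-exo library 10 it was -0.09. As a share of 3p arms plus the guides let-7a-5p to let-7f-5p, the members held 0.309, 0.388 and 0.371% in MSCsTXL-exo, against 0.274, 0.387 and 0.463% in MSCs-exo. The means were 0.356 ± 0.0416% and 0.374 ± 0.0951% (SD, n = 3 each), a difference of -0.0184 percentage points (p = 0.9, exact permutation test).

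In how much 3p arm was left, let-7d stood further from every other letter than the groups stood from each other. For each letter, the members of that letter were set against their guide arm, as let-7a-5p, let-7c-5p and let-7f-5p come from several gene copies. For let-7d the 3p arm was 8.47, 9.33 and 5.60% of 3p plus guide UMIs in MSCsTXL-exo, against 7.26, 5.55 and 5.93% in MSCs-exo. The highest share of any other letter in any library was 0.771%, for let-7b in MSCs-exo library 13, and no Wilson interval of another letter reached those of let-7d. For a comparison over hairpins, the share was taken from the mean CPM of the arms over the 6 libraries instead of from UMIs. Over the 118 hairpins with both arms in the table and at least 1000 UMIs, the less abundant arm had a median share of 2.22% (quartiles 0.442 and 8.14%). With 7.06% by this measure, let-7d ranked 34th of the 118. The letters let-7b, let-7a, let-7c, let-7e and let-7f, at 0.595, 0.350, 0.219, 0.104 and 0.0891%, ranked 78th, 91st, 95th, 106th and 110th, with let-7f-2-3p counted in for let-7f. The shares of let-7a and let-7c rest mostly on let-7a-1-3p and let-7c-2-3p, which are the same sequence, so they do not separate these letters. Pooled and taken from UMIs, let-7a and let-7c had a mean share of 0.268%. Of the family hairpins outside the 8 members, miR-98 had 3.01% (rank 53), let-7g 0.378% (rank 90) and let-7i 0.0236% (rank 118, the lowest).

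The guide of let-7d is printed beside that of let-7b, because let-7d had the highest 3p share of the letters a to f.
let-7d-5p: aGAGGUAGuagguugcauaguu
let-7b-5p: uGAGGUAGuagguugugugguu
From let-7b-5p to let-7d-5p the substitutions were U1A, U16C, G17A and G19A, and U1A and U16C also separated let-7d-5p from the guides of let-7a, let-7c, let-7e and let-7f. The level of let-7d-5p was low for the family, at 2835 ± 245 CPM in MSCsTXL-exo and 2213 ± 473 CPM in MSCs-exo (SD, n = 3 each). By comparison, let-7b-5p had 62058 ± 3064 CPM in MSCsTXL-exo and 47830 ± 8325 CPM in MSCs-exo.

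**Figure D4:**
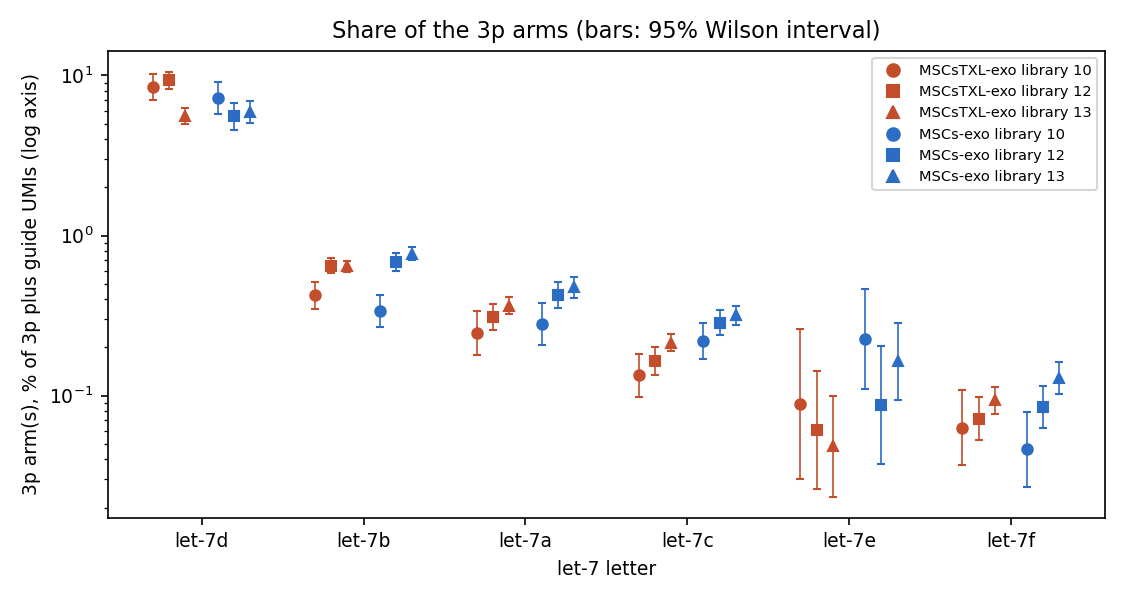
Share of the 3p arms among 3p plus guide UMIs for each let-7 letter and library (percent, log axis), with 95% Wilson intervals, MSCsTXL-exo in orange left of MSCs-exo in blue. The 6 libraries of let-7d lie between 5.55 and 9.33%, and every other value is at or under 0.771%.

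Between the groups, let-7c was the only letter whose shares did not overlap. Its 3p arms, let-7c-1-3p plus let-7c-2-3p, were 0.134, 0.164 and 0.214% of the let-7c UMIs in MSCsTXL-exo, against 0.220, 0.286 and 0.318% in MSCs-exo. All MSCsTXL-exo libraries were below all MSCs-exo libraries, and in both groups library 10 had the lowest and library 13 the highest share. The gap was narrow. The Wilson intervals of MSCsTXL-exo library 13 (0.189 to 0.242%) and MSCs-exo library 10 (0.171 to 0.284%) overlapped. How many of the other hairpins separate in this way is not given here. The log2 ratio of 3p to guide in MSCsTXL-exo minus that in MSCs-exo was -0.70 (p = 0.1 by a two-sided exact permutation test, the smallest it can give, and 0.45 adjusted over the 6 letters). Within the library numbers this difference was -0.70 ± 0.116 (SD, n = 3 numbers).

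Because the row let-7c-2-3p cannot be told from let-7a-1-3p, the letters a and c were also pooled. Their 3p arms were then 0.172, 0.217 and 0.268% in MSCsTXL-exo, against 0.241, 0.340 and 0.371% in MSCs-exo. The groups now overlapped, with a log2 difference of -0.54 (p = 0.2, exact permutation test). Within the library numbers the difference was -0.54 ± 0.0993 (SD, n = 3 numbers), and all 3 numbers had the lower share in MSCsTXL-exo (p = 0.25 by an exact sign-flip test, the smallest that 3 pairs allow).

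For the other letters the groups overlapped. The log2 difference of MSCsTXL-exo minus MSCs-exo was 0.32 for let-7d (p = 0.3), -0.01 for let-7b (p = 1), -0.34 for let-7a (p = 0.3), -1.21 for let-7e (p = 0.2) and -0.09 for let-7f (p = 0.9), each by the exact permutation test. The value for let-7e rested on 3 to 12 UMIs of the 3p arm per library. Adjusted over the 6 letters, these p-values were 0.45 or 1.

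The 4 members with the seed UAUACAA, which are 3 separate RNAs since let-7a-1-3p and let-7c-2-3p are the same sequence, had the same order of libraries, and let-7d-3p and let-7c-1-3p had another. In both groups let-7a-1-3p, let-7b-3p, let-7c-2-3p and let-7f-1-3p were lowest in library 10 and highest in library 13, a pattern found in 44 of 392 tested miRNAs (11.2%). The guide arms let-7b-5p, let-7c-5p, let-7d-5p, let-7g-5p and miR-98-5p also had it, so it was not particular to this seed. The guides of let-7a, let-7e, let-7f and let-7i did not have it. The level of the 4 members in library 13 was 1.67 to 2.01 times that in library 10 in MSCsTXL-exo and 2.16 to 3.20 times in MSCs-exo. Library totals also increased with the number in both groups, and the numbers, the depth and the scaling cannot be told apart. With library totals alone as the scaling, all 4 stayed lowest in library 10 of both groups, but let-7a-1-3p and let-7b-3p were no longer highest in library 13 of both. In contrast, let-7c-1-3p was highest in library 10 of both groups, as were 74 of 392 tested miRNAs (18.9%), and let-7d-3p was highest in library 12 of MSCsTXL-exo and in library 13 of MSCs-exo.

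Over the 6 libraries, which share these differences in depth, Pearson's r of log2 CPM among the 4 members was 0.85 to 0.99, with the identical pair at 0.98. Between them and let-7d-3p it was -0.11 to 0.42, and between them and let-7c-1-3p it was -0.75 to -0.33. For let-7f-1-3p and let-7d-3p, whose genes stand in 1 cluster, r was 0.03. For let-7f-1-3p with the rows of the identical pair, let-7a-1-3p and let-7c-2-3p, r was 0.98 and 0.99, and these rows do not separate the gene in that cluster from the one on chromosome 7. These values describe 6 libraries and were not tested.

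**Figure D5:**
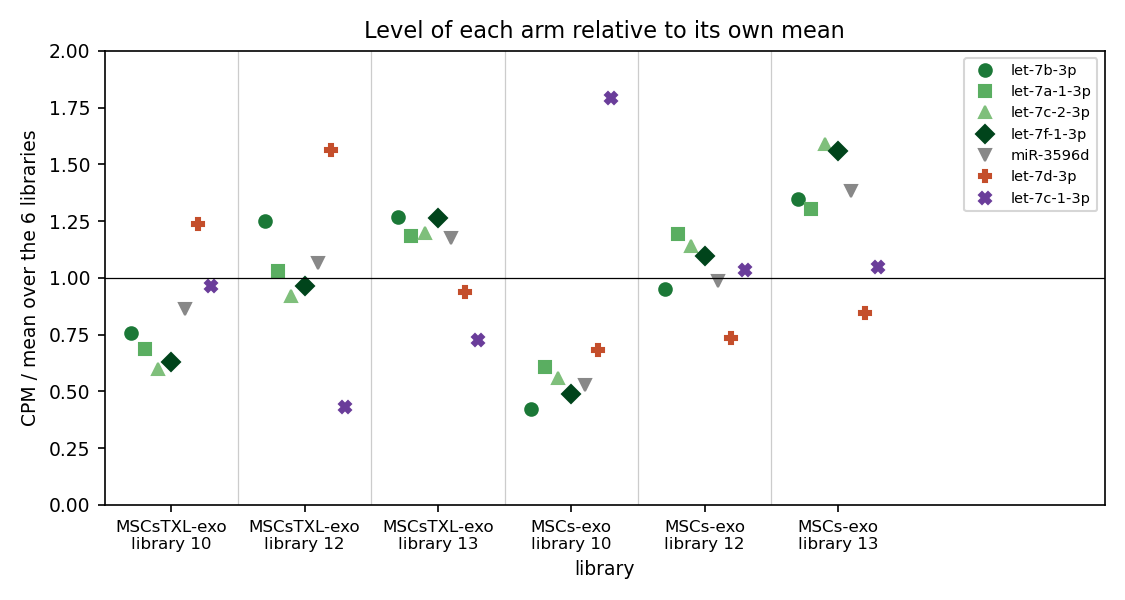
Level of 6 let-7 3p arms and of miR-3596d in each library, as CPM divided by the RNA's own mean over the 6 libraries (points), MSCsTXL-exo libraries on the left and MSCs-exo on the right. The arms with the seed UAUACAA (greens) and miR-3596d (grey) are low in library 10 and high in library 13 of both groups, whereas let-7d-3p (orange) and let-7c-1-3p (purple) have another order.

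The miRNAs whose pattern over the 6 libraries was most like that of let-7b-3p, the most abundant member, were miR-3596d, miR-139-5p and miR-322-3p (r = 0.979, 0.976 and 0.967 among 391 other miRNAs). Of the members, let-7f-1-3p was at rank 10, let-7a-1-3p at rank 14 and let-7c-2-3p at rank 26. The RNA miR-3596d is annotated on the strand opposite the guide of let-7f-1, at chr17:16320508-16320527 on the minus strand of GRCr8. It is printed because its 5′ part is that of the identical pair.
miR-3596d: cUAUACAAucuacuaccuca
let-7a-1-3p: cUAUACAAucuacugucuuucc
The first 14 bases were the same in both, and the first 12 were shared with let-7f-1-3p. At 2553, 3166 and 3486 CPM in MSCsTXL-exo, against 1568, 2921 and 4105 CPM in MSCs-exo, miR-3596d was far more abundant than any of the 8 members, and its groups overlapped (log2 fold change 0.10, SE 0.37, adjusted p = 0.992, edgeR). Whether reads of miR-3596d and of the 3p arms were ever assigned to each other was not tested, as the analysis started from counted UMIs.

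Beyond the 8 members, the table held 3p arms of other let-7 family hairpins and the miRNAs that share gene clusters with let-7. Of let-7f-2-3p, let-7g-3p, let-7i-3p and miR-98-3p, only miR-98-3p passed the filter on low counts, with a mean of 9.71 ± 4.63 CPM in MSCsTXL-exo and 14.9 ± 2.04 CPM in MSCs-exo (SD, n = 3 each) and a log2 fold change of -0.52 (SE 0.46, adjusted p = 0.992, edgeR). It has the seed UAUACAA and was, like the members with that seed, lowest in library 10 and highest in library 13 of both groups. Of the 11 arms of miR-99a, miR-99b, miR-100, miR-125a and miR-125b, 10 were tested, 9 of them with a positive log2 fold change, or 7 of 10 with library totals alone or without MSCsTXL-exo library 13 and 6 of 10 without MSCs-exo library 10. The thresholds of the study were passed by 1 of the 10, against 3.57% of all tested miRNAs. This was miR-125a-3p, the 3p arm of a hairpin near let-7e, with a log2 fold change of 1.003 (SE 0.41, adjusted p = 0.972, edgeR). It was called in only 1 of 15 alternative settings, the one without MSCsTXL-exo library 13, and its log2 fold change over these settings was 0.67 to 1.15, with 0.67 without MSCsTXL-exo library 12.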

How the data were processed

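The deposited table holds UMI counts of mature miRNAs, which the authors made from libraries of the QIAseq miRNA Library Kit. The submitters' processing notes name cutadapt 2.7 and Bowtie 1.2.2, with no genome build or mismatch setting in the sources used here. The table had 833 lines for 749 names, since 69 names have several lines with identical counts, and each name was counted once. The 6 columns of the authors' CPM were not used. The column letters M and T were read as MSCs-exo and MSCsTXL-exo.

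All miRNAs that passed filterByExpr by group (minimum count 10) were fitted by the quasi-likelihood test of edgeR 4.0.16 under R 4.3.3, without a block. TMM factors ran between 0.862 and 1.14, and the biological coefficient of variation was 0.481. SE was the log2 fold change divided by the square root of F. Sums and arm ratios were compared by two-sided exact permutation over libraries. A count of 3 UMIs, 1.94 to 7.48 CPM by library, was taken as the floor. Alternatives were DESeq2 1.42.0, limma-voom (limma 3.58.1), other scalings and filters, each library left out, and the library number as a block. Libraries of the same number deviated together from their group means (r = 0.429 for 10, 0.157 for 12 and 0.687 for 13), though weakly for 12. Library 12 of MSCsTXL-exo was closer to library 10 of MSCs-exo (r = 0.343). The number was tried as a pairing in the block, the sign-flip test and the differences within numbers. The main edgeR test and the permutation tests did not use it. With the block, the biological coefficient of variation was 0.312. The 8 members were taken by name and the guide arms, other 3p arms and cluster neighbours as whole lists, named by rule with the 3 miRNAs most like the most abundant member, and miR-3596d fell under that rule. The members and lists were chosen with earlier results of these data known. Sequences and coordinates are from RefSeq (GRCr8).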

Additional observations from a re-analysis of the deposited data

How the results depend on the processing

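The count of members past the 2-fold and p thresholds was 0 in all 16 settings. The count over all miRNAs, 14, was 25 with DESeq2, 9 with limma-voom, 34 with no filter, 6 with at least 10 counts in every library, 0 by adjusted p, 29 with the replicate block and 52 with the replicate block and no filter (an alternative chosen after seeing the data), and 6 to 38 with a library left out; the cause was not tested. In the fit with the replicate block, let-7d-3p had a log2 fold change of 0.69 (SE 0.31, adjusted p = 0.468) and let-7c-1-3p of -0.86 (SE 0.37, adjusted p = 0.457), and the block changed no call of a member. Both kept their direction in all settings that tested them, let-7d-3p at 0.50 to 0.83 and let-7c-1-3p at -1.11 to -0.62 with a library left out. let-7c-1-3p failed the filter of 10 counts in every library.

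With a library left out, signs turned for let-7a-1-3p (-0.40 to 0.11), let-7b-3p (-0.11 to 0.61), let-7c-2-3p (-0.62 to 0.0517), let-7f-1-3p (-0.50 to 0.23), the summed log2 difference (-0.0909 to 0.46), the difference in 3p share (-0.0688 to 0.0257 percentage points) and the log2 3p to guide ratios of let-7b (-0.38 to 0.22) and let-7f (-0.48 to 0.26). Without let-7d-3p, an alternative also chosen after seeing the data, the summed log2 difference was 0.07. Depth limits let-7e-3p and let-7a-2-3p, with 39 and 18 UMIs in all.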

Other observations

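The antisense miR-3596 family, looked at after the table was seen, held RNAs annotated opposite the guides of let-7a-2, let-7d, let-7e and let-7f-1. miR-3596a had 5759, 6344 and 6634 CPM in MSCsTXL-exo, against 2683, 4694 and 7504 CPM in MSCs-exo, and shared a run of 14 bases with let-7b-3p. Its 3 tested members had log2 fold changes of 0.10 to 0.54, none of them called by edgeR, and all 3 were lowest in library 10 and highest in library 13 of both groups. Without MSCs-exo library 10, 1 of the 3 log2 fold changes was positive.

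Within the 8 let-7 3p arms, let-7d-3p took 33.1, 29.4 and 18.2% of the summed UMIs in MSCsTXL-exo, against 26.1, 16.8 and 14.9% in MSCs-exo. The share was higher in MSCsTXL-exo within each library number, and the groups overlapped (p = 0.2, two-sided exact permutation test).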
